A study of Mus musculus with 12 samples.

Results

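The 10 genes described here encode the enzymes and protein regulators of polyamine metabolism together with the methyltransferase of nicotinamide. They were chosen by symbol, as Nnmt, Odc1, Amd1, Srm, Sms, Sat1, Paox, Azin1, Oaz1 and Oaz2, and all 10 were found among the 13304 genes with a value in liver RNA. Total RNA was measured in livers of 5 Maf1-/- mice and 7 WT mice, with 1 library per animal. All mice were of strain C57Bl/6J and aged 12 to 14 weeks, and all had been kept on chow, gone without food overnight and then been fed again for 4 h before the livers were perfused with buffered saline. The Maf1-/- animals lacked MAF1, a repressor of RNA polymerase III, in the whole body, and the libraries were made from pieces of whole liver, with the RNA of all its cell types. The comparison addressed here is how the loss of MAF1 relates to the mRNA levels of these genes in the refed liver.

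Polyamines are small positively charged molecules that bind nucleic acids and are needed for translation and growth. ODC1 removes the carboxyl group of ornithine to give putrescine, and SRM and SMS then add aminopropyl groups to make spermidine and spermine, with the group donated by S-adenosylmethionine that AMD1 has decarboxylated. SAT1 acetylates spermidine and spermine, and PAOX oxidizes the acetylated forms back toward putrescine. The antizymes OAZ1 and OAZ2 bind ODC1 and deliver it to the proteasome, whereas AZIN1 resembles ODC1, has no decarboxylase activity and captures antizyme. NNMT, an enzyme abundant in liver, transfers the methyl group of S-adenosylmethionine to nicotinamide. NNMT and AMD1 thus draw on the same donor, and NNMT withdraws nicotinamide from the synthesis of NAD.

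The libraries held between 34709661 and 41931441 reads in the listed genes in Maf1-/- livers and between 35003720 and 55787438 reads in WT livers. A value is a log2 CPM, the reads of a gene with 0.5 added over a scaled library size, with no division by gene length. The labels were checked first with Maf1 itself, which averaged -1.43 ± 1.27 in Maf1-/- livers and 3.36 ± 0.35 in WT livers (SD, n = 5 and 7). Its log2 fold change was thus -4.79, with an SE of 0.44 and a limma adjusted p of 6.0e-04. The gene model Gm35339 averaged 5.62 ± 0.35 in Maf1-/- livers and 0.42 ± 0.41 in WT livers, with a log2 fold change of 5.20 and no overlap. Gm35339 is the gene just downstream of Maf1, and the authors raise the possibility that its rise adds to some traits of these mice. In the differences below, the loss of MAF1 and the rise of Gm35339 cannot be told apart. A gene was called different where its log2 fold change was beyond 0.5 in either direction and the limma adjusted p was below 0.01. Maf1 and Gm35339 were the only 2 genes called, which is 0.015% of all genes listed, while 3069 genes, or 23.1%, had an unadjusted p under 0.05. The authors, whose fit also held factors of unwanted variation, called far more genes at the same cut-offs, most of them lower in Maf1-/- livers. The summed level of 6 hepatocyte markers was 106684 to 139352 CPM in Maf1-/- livers and 97815 to 127053 CPM in WT livers, far above that of any other cell type listed. The summed levels of 6 Kupffer cell markers were 231 to 346 CPM in Maf1-/- livers and 214 to 377 CPM in WT livers, and those of 6 stellate cell markers were 525 to 746 CPM in Maf1-/- livers and 441 to 619 CPM in WT livers. Of 5 adipocyte markers Adipoq, Plin1 and Lep had no value in the table, and 1 of 6 lymphocyte markers had one.

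The library of WT 2 stood apart from the other 6 WT libraries. The slope of the log2 value on GC content, in log2 units per 10 percentage points of GC relative to the mean library, was -0.04, 0.08, -0.44, -0.54 and -0.19 in Maf1-/- 1 to 5, against -0.57 in WT 2 and 0.14 to 0.35 in the other WT livers. Genes of high GC content therefore carried lower values in Maf1-/- livers as a group and in WT 2. The median log2 fold change across the table ran with GC content, at 0.26 in the tenth of genes with the least GC and -0.53 in the tenth with the most. For this reason the differences of the members are given with all libraries and after removal of the trend on GC content and gene length, and without WT 2 where that moved them. The part of this trend in each difference was not tested beyond these values.

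No member was called different between the genotypes with all 12 libraries. Of the 10 members 2 had an unadjusted p under 0.05, Oaz1 and Srm, and both averaged lower in Maf1-/- livers. Of all genes, 13.2% were lower in Maf1-/- at that threshold and 9.9% were higher, so that 2 of 10 is near the share of all genes. The groups overlapped in all 10 members, and 0.586% of all genes did not overlap. The median log2 fold change of the members was -0.03 and that of all genes was -0.02. The range over the members ran from -1.46 for Nnmt to 0.24 for Amd1.

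**Figure D1:**
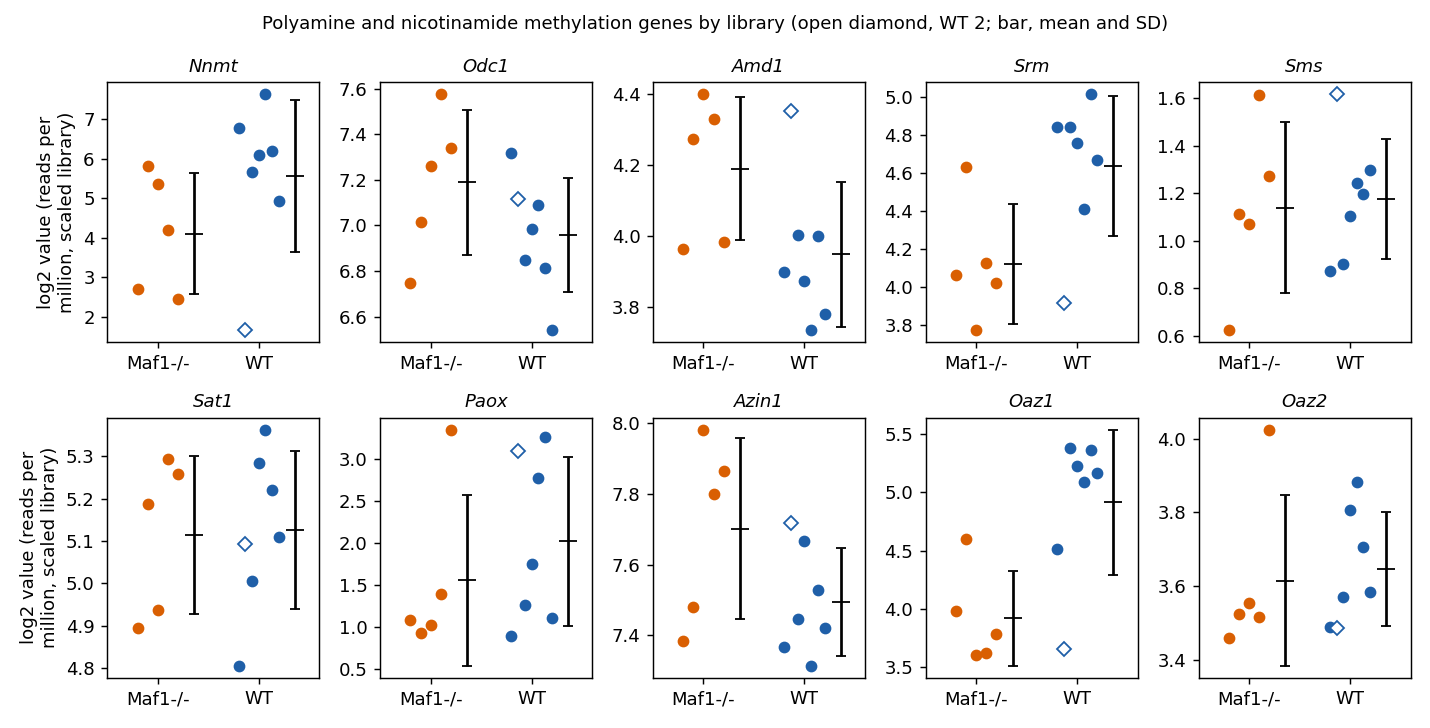
Log2 value of each member in each library (log2 CPM, vertical axis), with 5 Maf1-/- livers on the left and 7 WT livers on the right of each panel; the open diamond is WT 2 and the bar gives the mean and SD. The groups overlap in every panel, and in Nnmt, Oaz1 and Srm the lowest WT value is that of WT 2.

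Per kilobase of exon, Odc1 had the highest mean of the members, at a log2 level of 5.84 ± 0.32 in Maf1-/- livers and 5.61 ± 0.25 in WT livers (SD, n = 5 and 7). In WT livers Nnmt followed at 4.91, Azin1 at 4.85 and Oaz1 at 4.81, and these neighbours differed by less than their spread. The gap from Odc1 to Nnmt in WT livers, 0.70, was also less than the SD of Nnmt, 1.92. Srm stood at 3.96 in WT livers and Sat1 at 3.65. That gap, 0.30, was less than the SD of Srm, 0.37, and more than that of Sat1, 0.19. Amd1 was at 2.27 and Oaz2 at 2.07. Paox had 1.20 and Sms, the spermine synthase, was lowest at -1.41, and the gap between these was larger than the SD of either. In Maf1-/- livers the order was Odc1 at 5.84, Azin1 at 5.06, Oaz1 at 3.82, Sat1 at 3.64, Nnmt at 3.45, Srm at 3.44, Amd1 at 2.51, Oaz2 at 2.04, Paox at 0.73 and Sms at -1.45. Nnmt thus stood next to Odc1 in WT livers and below Sat1 in Maf1-/- livers, and its values had the widest spread. With the longest transcript in place of all exons, the WT level was 4.69 for Sat1, 5.21 for Azin1, 2.76 for Oaz2 and -0.72 for Sms.

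**Figure D2:**
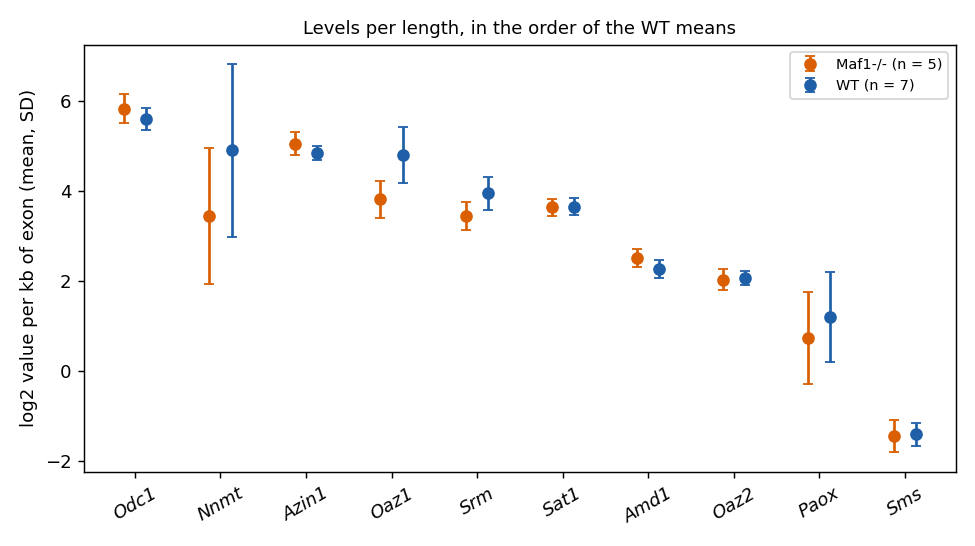
Log2 level per kilobase of exon of each member (mean and SD), with Maf1-/- livers (n = 5) left of WT livers (n = 7) for each gene and genes in the order of the WT means. The mean of Odc1 is highest in both genotypes and that of Sms lowest, and Nnmt has the widest bars.

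Odc1, the first enzyme of the pathway, is at chromosome 12, 17544873 to 17551502 on the plus strand of GRCm38. Its log2 values were 6.75, 7.02, 7.26, 7.58 and 7.34 in Maf1-/- livers 1 to 5, and in WT livers the lowest was 6.54, the median 6.99 and the highest 7.32. These values rest on 4362 to 7009 reads in Maf1-/- livers and 4393 to 8133 reads in WT livers. Maf1-/- 4 and Maf1-/- 5 were above every WT liver, and Maf1-/- 1 lay below the WT median. Maf1-/- over WT, the log2 fold change was 0.23 (SE 0.16, 95% interval -0.12 to 0.58, limma adjusted p = 0.36, two-sided exact permutation p = 0.19). It was 0.24 after the correction for GC content and length and 0.26 without WT 2, and single Maf1-/- livers moved it more, to 0.13 without Maf1-/- 4 and 0.34 without Maf1-/- 1. A small nucleolar RNA gene of 136 bases, Gm22748, lies on the same strand inside Odc1, and reads shared by them cannot be told apart in the table. Gm22748 averaged -0.91 in Maf1-/- livers and -0.28 in WT livers, far below the level of Odc1.

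The bases upstream of the start of Odc1, of Oaz1, the antizyme that acts on its product, and of Amd1, the other decarboxylase, are shown because these genes hold the control points of synthesis. Each is the window of 250 bases that ends at the RefSeq start, in GRCm38.p6. Capitals mark every match, on either strand, to GGGCGG, the GC box, or to CCAAT.
Odc1, chr12:17544623-17544872, plus strand: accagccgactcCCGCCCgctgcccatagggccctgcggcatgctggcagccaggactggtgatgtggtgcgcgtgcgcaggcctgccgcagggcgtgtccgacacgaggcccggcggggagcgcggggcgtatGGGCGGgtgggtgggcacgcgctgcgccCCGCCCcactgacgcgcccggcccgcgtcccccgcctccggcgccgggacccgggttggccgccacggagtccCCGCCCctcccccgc
Oaz1, chr10:80826406-80826655, plus strand: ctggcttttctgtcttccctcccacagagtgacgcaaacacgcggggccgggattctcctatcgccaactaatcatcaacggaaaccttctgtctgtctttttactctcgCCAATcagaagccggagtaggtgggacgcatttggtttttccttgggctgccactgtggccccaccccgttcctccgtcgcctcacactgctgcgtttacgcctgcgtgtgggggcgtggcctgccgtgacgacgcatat
Amd1, chr10:40302189-40302438, minus strand: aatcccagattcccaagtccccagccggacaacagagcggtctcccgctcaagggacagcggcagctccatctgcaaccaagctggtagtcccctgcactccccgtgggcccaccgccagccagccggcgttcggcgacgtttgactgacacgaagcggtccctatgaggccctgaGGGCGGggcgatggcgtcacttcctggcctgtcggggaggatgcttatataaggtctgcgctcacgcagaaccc
The window of Odc1 had a GC content of 80.0% and 4 matches to GGGCGG, that of Oaz1 58.0% with 1 match to CCAAT, and that of Amd1 64.4% with 1 match to GGGCGG. The median over 32851 windows of the same length was 52.4%, and GGGCGG was found in 32.7% of them and CCAAT in 33.8%. The letters CACGTG, the E-box bound by MYC and its partners, were in 6.02% of all windows and TATAAA in 12.4%, and neither was in these 3 windows. Only exact matches were counted, so near variants, such as tatataag close to the start of Amd1, were left out. Sites outside the windows, such as those inside a gene, were not searched. RefSeq windows were matched for 7 of the 10 members, and Nnmt, Srm and Azin1 were not among them.

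Oaz1, the antizyme that sends ODC1 to the proteasome, showed the lowest p of all members. It lies at chromosome 10, 80826656 to 80829290 on the plus strand. Its log2 values were 3.99, 4.60, 3.61, 3.63 and 3.78 in Maf1-/- livers 1 to 5, and in WT livers the lowest was 3.66, the median 5.16 and the highest 5.38. The reads were 453 to 934 in Maf1-/- livers and 516 to 1767 in WT livers. The lowest WT value was that of WT 2, and the other WT livers were at 4.51 to 5.38, so that beside WT 2 only WT 1 and Maf1-/- 2 crossed between the genotypes. Between the genotypes the log2 fold change was -0.99, a level in Maf1-/- livers 0.503 times that in WT livers (SE 0.29, 95% interval -1.63 to -0.36, limma p = 0.0050, adjusted p = 0.19, two-sided exact permutation p = 0.023). It did not pass the threshold with all libraries. Without WT 2 it was -1.20 with an adjusted p of 0.0065 and was called, the only member among 904 called genes, or 6.79% of the table. With 1 factor of residual variation in the fit Oaz1 (adjusted p = 5.1e-04) and Srm (adjusted p = 0.0073) were called lower, 2 of 10 members against 8.09% of all genes. That factor was taken from the residuals left after the genotype was fitted. It left every fold change as it was and altered only the SE and p, so these calls add no separate support. After the correction for GC content and length Oaz1 stood at -0.75 (adjusted p = 0.22), and at -0.87 (adjusted p = 0.023) with WT 2 left out as well. The gene has a GC content of 56.9% and 1 annotated pseudogene, Oaz1-ps, which is not in the table, so reads could be split between them, and the same holds for Oaz2 and Sms.

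Oaz2, another antizyme, averaged 3.62 ± 0.23 in Maf1-/- livers and 3.65 ± 0.15 in WT livers (SD, n = 5 and 7), and lies at chromosome 9, 65668001 to 65690300 on the plus strand. Its log2 values were 3.46, 3.53, 3.55, 3.52 and 4.02 in Maf1-/- livers 1 to 5, and in WT livers the lowest was 3.49, the median 3.58 and the highest 3.88. Maf1-/- 5 was above every WT liver, and the other Maf1-/- livers lay within the lower part of the WT range or just below it. The log2 fold change was -0.03 (SE 0.12, 95% interval -0.29 to 0.23, limma adjusted p = 0.88), and it was -0.06 after the correction for GC content and length. The difference between the antizymes was itself not tested.

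Azin1, the antizyme inhibitor, is at chromosome 15, 38487430 to 38519266 on the minus strand. It had log2 values of 7.38, 7.48, 7.98, 7.80 and 7.86 in Maf1-/- livers 1 to 5, and in WT livers the lowest was 7.31, the median 7.45 and the highest 7.72. Maf1-/- 3, 4 and 5 were above every WT liver and the other 2 were near the WT median. Maf1-/- over WT, the log2 fold change was 0.21 (SE 0.12, 95% interval -0.06 to 0.48, limma adjusted p = 0.29), and it turned to -0.11 after the correction for GC content and length. Without Maf1-/- 3 it was 0.14. Azin1 has a GC content of 39.8%, the lowest of the members.

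Because antizyme acts on ODC1, the log2 value of Oaz1 was also subtracted from that of Odc1 in each liver, as a description. The values used were not corrected for GC content and length, and Oaz1 has more GC, 56.9% against 51.2% in Odc1. The difference was 2.76, 2.42, 3.66, 3.95 and 3.55 in Maf1-/- livers 1 to 5, with a mean of 3.27 ± 0.65, and 2.05 ± 0.79 in WT livers. WT 2 reached 3.46 and WT 1 reached 2.80, while the other WT livers were at 1.38 to 2.00. The groups thus overlapped, with WT 1 and WT 2 above Maf1-/- 1 and Maf1-/- 2.

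Srm, which makes spermidine, is at chromosome 4, 148591503 to 148594993 on the plus strand. It had log2 values of 4.06, 4.63, 3.77, 4.13 and 4.02 in Maf1-/- livers 1 to 5, and in WT livers the lowest was 3.92, the median 4.76 and the highest 5.01. The lowest WT value was again WT 2, and the other WT livers were at 4.41 to 5.01, above all Maf1-/- livers but Maf1-/- 2. Between the genotypes the log2 fold change was -0.51 (SE 0.19, 95% interval -0.93 to -0.10, limma p = 0.020, adjusted p = 0.19, two-sided exact permutation p = 0.035). It was -0.63 without WT 2 (adjusted p = 0.013), and -0.15 after the correction for GC content and length (adjusted p = 0.48), with a GC content of 60.5%, the highest of the members. The RefSeq model of Masp2, a gene of the complement system, shares 372 bases with the end of Srm. Masp2 averaged 7.88 in Maf1-/- livers and 7.92 in WT livers.

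Amd1, which decarboxylates S-adenosylmethionine, is at chromosome 10, 40287458 to 40302188 on the minus strand. It had log2 values of 3.96, 4.27, 4.40, 4.33 and 3.99 in Maf1-/- livers 1 to 5, and in WT livers the lowest was 3.73, the median 3.90 and the highest 4.35. The highest WT liver was WT 2, and Maf1-/- 2, 3 and 4 were above the other 6 WT livers. The log2 fold change was 0.24 (SE 0.13, 95% interval -0.03 to 0.51, limma adjusted p = 0.25, two-sided exact permutation p = 0.080). It was 0.31 without WT 2 (adjusted p = 0.045) and -0.05 after the correction for GC content and length, so that its direction depended on the correction. Amd1 has 8 annotated copies by name, Amd2 and a set of pseudogenes, none of which is in the table, and its value is uncertain where reads could be split among them.

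Sms, which makes spermine, is at chromosome X, 157443855 to 157492287 on the minus strand, and was measured by few reads, 62 to 112 in Maf1-/- livers and 76 to 125 in WT livers. Its log2 values were 0.62, 1.11, 1.07, 1.61 and 1.27 in Maf1-/- livers 1 to 5, and in WT livers the lowest was 0.87, the median 1.19 and the highest 1.62. Maf1-/- over WT, the log2 fold change was -0.04 (SE 0.17, 95% interval -0.40 to 0.33, limma adjusted p = 0.90). Without WT 2 it was 0.04 (limma adjusted p = 0.87), so that its direction changed. After the correction for GC content and length it was -0.30 with an unadjusted p of 0.043. At that threshold the corrected values held 2 of 10 members, Oaz1 and Sms, and 18.3% of all genes.

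Sat1, the acetyltransferase that starts the breakdown of spermidine and spermine, is at chromosome X, 155213132 to 155216449 on the minus strand. It had log2 values of 4.90, 5.19, 4.94, 5.29 and 5.26 in Maf1-/- livers 1 to 5, and in WT livers the lowest was 4.81, the median 5.11 and the highest 5.36. All Maf1-/- values lay within the WT range. Between the genotypes the log2 fold change was -0.01 (SE 0.12, 95% interval -0.27 to 0.24, limma adjusted p = 0.96). After the correction for GC content and length Sat1 was at -0.25 (95% interval -0.56 to 0.06, adjusted p = 0.35), and at -0.33 (95% interval -0.59 to -0.06, adjusted p = 0.10) with WT 2 left out as well, and it was not called in either. Paox, the oxidase of the acetylated polyamines at chromosome 7, 140115799 to 140137224 on the plus strand, had log2 values of 1.08, 0.93, 1.02, 1.39 and 3.35 in Maf1-/- livers 1 to 5, and in WT livers the lowest was 0.89, the median 1.75 and the highest 3.27. Both genotypes held low and high values, with Maf1-/- 5 and WT 2, 5 and 6 at 2.78 or above and the other livers at 1.75 or below. The log2 fold change was -0.47 (SE 0.53, 95% interval -1.61 to 0.68, limma adjusted p = 0.57). It was -0.92 without Maf1-/- 5, -0.29 without WT 2 and -0.26 without WT 6, and after the correction for GC content and length it was -0.27, or -0.03 with WT 2 left out as well. Paox shares 678 bases with Echs1, an enzyme of fatty acid oxidation on the opposite strand that averaged 6.99 in Maf1-/- livers and 7.25 in WT livers, and the strand setting of the counting is not given in the sources used here.

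Nnmt varied more between animals than any other member. It is at chromosome 9, 48591877 to 48605153 on the minus strand. Its log2 values were 2.70, 5.82, 5.37, 4.19 and 2.45 in Maf1-/- livers 1 to 5, and in WT livers the lowest was 1.65, the median 6.08 and the highest 7.64. The reads ran from 188 to 2181 in Maf1-/- livers and from 128 to 6791 in WT livers. The lowest WT liver was WT 2, with a difference of -4.57 from the mean of the other 6, which were at 4.94 to 7.64. Maf1-/- 2 and 3 lay within that range, and Maf1-/- 1, 4 and 5 lay below it. The SD of Nnmt among WT livers, 1.92, was above that of 99.8% of genes in the table. Maf1-/- over WT, the log2 fold change was -1.46 (SE 0.92, 95% interval -3.46 to 0.54, limma adjusted p = 0.31, two-sided exact permutation p = 0.19). Without WT 2 it was -2.11 (SE 0.66, adjusted p = 0.033), still short of the threshold, and after the correction for GC content and length it was -1.48. In bulk tissue a lower number of expressing cells and less RNA per cell cannot be told apart.

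**Figure D3:**
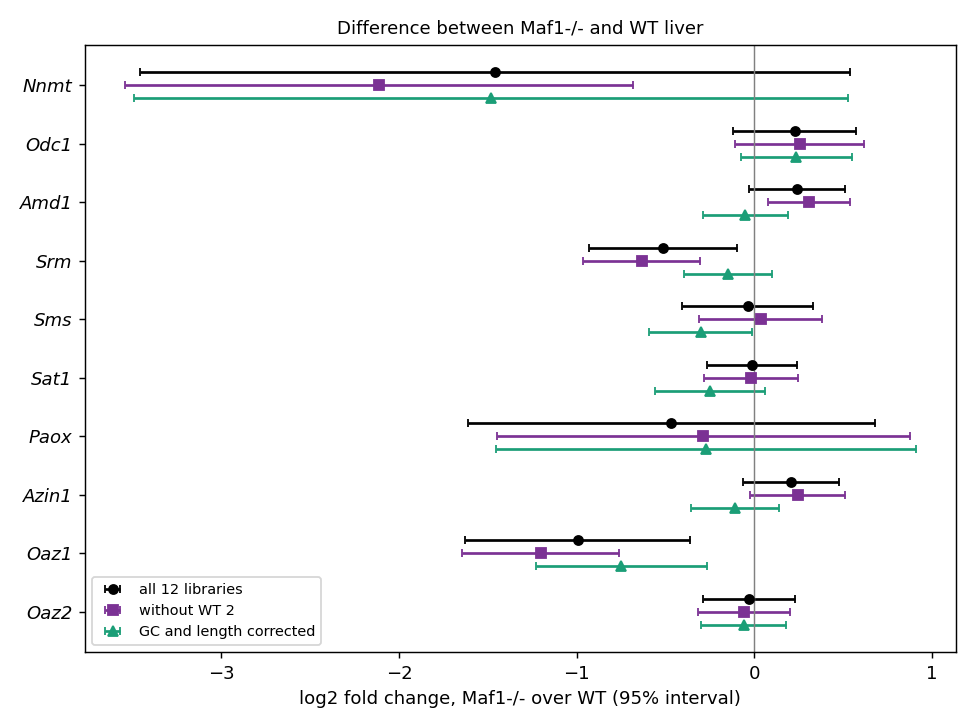
Log2 fold change of each member, Maf1-/- over WT (horizontal axis, point and 95% interval), with all 12 libraries, without WT 2, and after the correction for GC content and length. The interval of Oaz1 lies below 0 under all 3 settings, that of Nnmt only without WT 2, and the points of Amd1 and Azin1 change side after the correction.

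The count of members with an unadjusted p under 0.05 depended on single libraries. It was 4 without WT 2 (Nnmt, Oaz1 and Srm lower and Amd1 higher), where 43.5% of all genes passed. It was 5 without Maf1-/- 1, where Odc1, Amd1 and Azin1 joined Oaz1 and Srm and 21.1% of all genes passed. It was 1 without Maf1-/- 3, which left Oaz1, with 12.1% of all genes. Oaz1 was the member that stayed under this threshold in each of these.

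Across the 12 livers, on deviations from the mean of each genotype, Oaz1 and Srm varied together with a Pearson r of 0.82, and Oaz1 and Nnmt with 0.62. Odc1 and Oaz1 had an r of -0.54. These are descriptions over 12 libraries that share the GC trend and WT 2. The genes most like Nnmt by the same measure were Prpf6 with an r of 0.93, C3 with 0.92 and Hhipl2 with 0.91. Those most like Odc1 were Enpp6 with 0.91, Lsm6 with 0.89 and Emd with 0.89.

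Around the members, 96 further genes of 10 lists were set beside them, of which 83 had a value. None was called at the limma threshold. At an unadjusted p under 0.05, 11 of the 83 were lower in Maf1-/- livers and 3 were higher, against 13.2% lower and 9.9% higher of all genes, so that the lower ones were at the share of the whole. The medians of the lists ran from -0.40 to 0.06 and that of all genes was -0.02. Below, each gene is given by its log2 fold change with all libraries and then by its value after the correction for GC content and length, and none was called in the corrected values.

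Of the other polyamine enzymes 4 of 7 were measured. Azin2, a further antizyme inhibitor, was at -0.74 (adjusted p = 0.21) and -0.45 corrected, Smox, the spermine oxidase, at -0.41 and -0.05 corrected, and Agmat, the agmatinase gene, at -0.26 and 0.03 corrected. Of the genes of ornithine supply 4 of 5 were measured, and Oat, which converts ornithine to glutamate semialdehyde, averaged 10.28 ± 0.17 in Maf1-/- livers and 10.58 ± 0.20 in WT livers, a difference of -0.30 on the log2 scale (SE 0.12, adjusted p = 0.20) and of -0.43 corrected. Arg1, which makes ornithine, was at 0.16 and 0.03 corrected, and Otc, which uses it in the urea cycle, at 0.16 and -0.17 corrected. Spermidine is also the donor for hypusine, the modified lysine of EIF5A, and none of these 4 genes had a p under 0.05, with Dhps at -0.24 and -0.13 corrected, Dohh at -0.59 and -0.18 corrected and Eif5a at -0.04 and 0.18 corrected. Of the polyamine transporters 8 of 10 were measured. Atp13a2, the lysosomal exporter, stood at -0.96 (SE 0.38, adjusted p = 0.20) and -0.51 corrected (adjusted p = 0.24), and the organic cation transporter Slc22a3 at -0.72 (adjusted p = 0.21) and -0.65 corrected. Of 9 measured regulators of the MYC network, which acts on the Odc1 gene, 4 had a p under 0.05, all with lower values in Maf1-/- livers, where 23.1% of all genes passed and 13.2% were lower. The median GC content of this list was 54.6%, against 49.5% for all genes, and its median log2 fold change was -0.40 and -0.21 corrected. Mnt was at -0.99 and -0.54 corrected, Myc at -0.55 and -0.36 corrected, and Mxd4 at -0.48 and -0.21 corrected.

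S-adenosylmethionine and NAD tie Nnmt to the other lists. Of the 16 genes of the methionine and folate cycle Mat2a, a subunit of S-adenosylmethionine synthetase, averaged 6.45 ± 0.19 in Maf1-/- livers and 5.94 ± 0.38 in WT livers, a difference of 0.51 on the log2 scale (SE 0.18, adjusted p = 0.19) and of 0.25 corrected (adjusted p = 0.30). Gamt, the methyltransferase of creatine synthesis, was at -0.60 (adjusted p = 0.21) and -0.27 corrected. In the salvage of methylthioadenosine, the by-product of SRM and SMS, Mri1 was at -0.43 (adjusted p = 0.20) and -0.42 corrected, Mtap at 0.22 and 0.04 corrected, and Kyat1 at -0.25 and -0.07 corrected. Nampt, the enzyme that returns nicotinamide to NAD, averaged 7.25 ± 0.34 in Maf1-/- livers and 6.60 ± 0.38 in WT livers, a difference of 0.66 (SE 0.20, adjusted p = 0.19) and of 0.34 corrected (adjusted p = 0.23). Nmrk1 was at 0.27 (adjusted p = 0.19) and 0.11 corrected, and Naprt at -0.51 and -0.14 corrected (adjusted p = 0.51). Of 8 genes of the tryptophan pathway, whose enzymes lead toward NAD or, as for ACMSD, away from it, none had a p under 0.05. The same held for the 11 genes that consume NAD. Among them Kynu was at 0.25 and -0.05 corrected, Tdo2 at 0.28 and -0.04 corrected, Acmsd at 0.84 and 0.60 corrected, Sirt3 at -0.35 and -0.17 corrected, Sirt4 at -0.30 and -0.21 corrected, and Parp1 at -0.30 and -0.19 corrected. Without WT 2 and without the correction, some of these genes passed the threshold of a call, as did 6.79% of all genes, among them Mat2a at 0.64 (adjusted p = 0.0065), Nampt at 0.78 (adjusted p = 0.0088), Atp13a2 at -1.25 (adjusted p = 0.0071), Mxd4 at -0.60 (adjusted p = 0.0072) and Naprt at -0.71 (adjusted p = 0.0092).

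**Figure D4:**
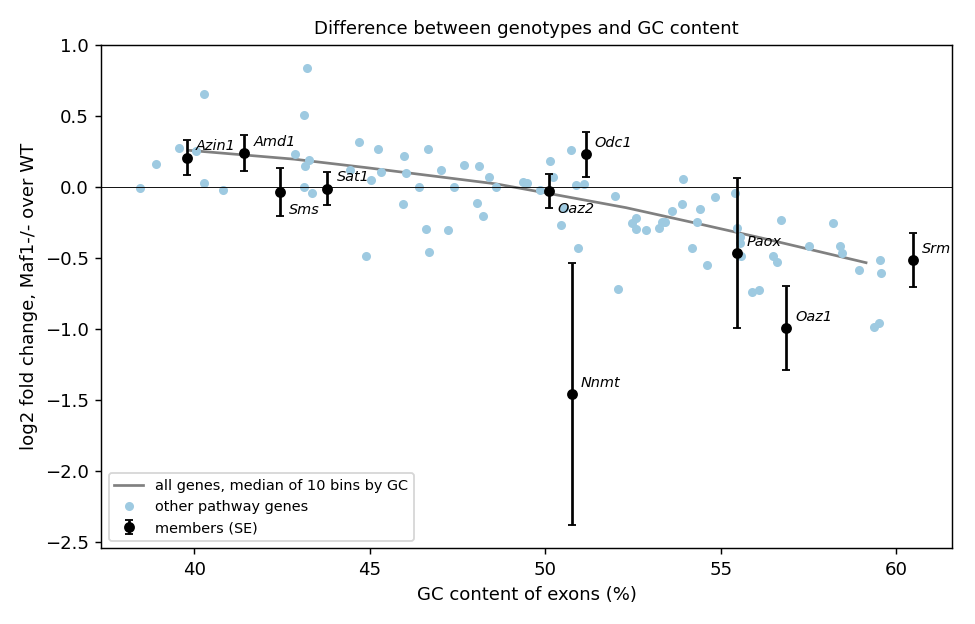
Log2 fold change, Maf1-/- over WT (vertical axis), against the GC content of exons in percent (horizontal axis), for the 10 members with their SE, 83 other pathway genes and the median of all genes in 10 bins of GC content (line). Srm, Amd1 and Azin1 lie near the line, Oaz1 and Nnmt below it and Odc1 above it.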

How the data were processed

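Total RNA of perfused livers was sequenced after removal of ribosomal and globin RNA with a stranded kit. The tools named in the submitters' processing notes include cutadapt 1.8, STAR 2.5.2b, HTSeq 0.6.1 and limma 3.28.21. The authors deposited log2 values per gene, which are described as RPKM. Undoing the log gave whole reads (within 0.001) for all values once 0.5 and the scaling of the library were taken out, and gene length plays no part in them. Maf1-/- was compared with WT by limma 3.58.1 in R 4.3.3 on these log2 values, without trend or factors, with p adjusted by Benjamini and Hochberg over 13304 genes. Exact permutation tests went over all 792 divisions of the libraries, which allow a smallest p of 0.0013. The mice are the replicates. The GC and length correction subtracted a loess surface (span 0.4) library by library. It used exons of NCBIM37 matched by gene identifier, which 93.8% of genes had. Levels per length used the same exons.

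The members and lists were chosen with earlier results of these data known. Genes named are the members, Maf1 and Gm35339, the 3 genes of each list with the smallest p, and the 3 genes most like Nnmt and Odc1. Some genes named by this rule are not reported here. Gm22748, Masp2 and Echs1 are named because they overlap members. The deposited pol III occupancy scores were not used. Figures were drawn with matplotlib 3.10.9.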

Additional observations from a re-analysis of the deposited data

Results flagged for a closer look

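Of 22 groups of values tested for 1 library far from the others, 3 were set apart by Dixon's criterion, which chance does in about 1 in 20 groups. Paox had a log2 value of 3.35 in Maf1-/- 5, and the other Maf1-/- livers were at 0.93 to 1.39. Oaz2 had a log2 value of 4.02 in Maf1-/- 5, and the other Maf1-/- livers were at 3.46 to 3.55. WT 1 held 55787438 reads in the listed genes, and the other WT livers held 35003720 to 43721818.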

How the results depend on the processing

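The direction of Nnmt, Odc1, Srm, Paox and Oaz1 was kept under all 25 alternatives. Residual factors alone could not change a direction, as they leave each fold change as it was. The count of called genes was 2 with all libraries, 2019 with library weights, 1076 with 1 residual factor, 1276 with 2, 1 after the GC and length correction, 182 after it with 1 factor, 16 after it without WT 2 (an alternative added after the data were seen), and 2 to 904 when each library was left out. Oaz1 was called at -1.34 with library weights, at -0.99 with 1 or 2 factors, at -0.75 after the correction with 1 factor and at -1.20 without WT 2, and Srm was called at -0.72 with library weights and at -0.51 with 1 or 2 factors. With the replicate number as a block 1 gene was called, and 0 with the block and the correction. An unadjusted limma p under 0.05 was found for 573 of 13304 genes under the block, and for 647 of 12482 with the correction as well. In either fit 0 of 10 members had such a p, which is near so small a share of all genes. Odc1 was at 0.12 under the block. At the same number, deviations of the livers correlated at -0.46 to 0.23 and 0 of 5 numbers had their best correlation with themselves. This gave no sign that the numbers pair the mice. So few correlations, in libraries that share the GC trend, cannot exclude a pairing. That count of members was 1 to 5 when each library was left out. Reversed directions were Amd1 at -0.049 after the correction, alone or with 1 factor, -0.022 with the block and the correction and -0.071 without WT 2 and with the correction, and Azin1 at -0.11, -0.064 and -0.17 in the same settings. Centring each library on its median, which moved the median of all genes to 0.07, put Sms at 0.063, Sat1 at 0.088 and Oaz2 at 0.069, and the block put Sat1 at 0.0045. Leaving out each library gave -0.16 to 0.093 for Sms, -0.065 to 0.043 for Sat1 and -0.13 to 0.0085 for Oaz2. The causes of these moves were not tested.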

Other observations

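Chosen after their values were seen, Gnl3, Nop58 and Brix1 were the genes most like Amd1 over the 12 libraries, on deviations from the group means, with a Pearson r of 0.97, 0.93 and 0.92. All 3 encode proteins of ribosome assembly in the nucleolus. Gnl3 averaged 5.17 ± 0.17 in Maf1-/- livers and 4.87 ± 0.20 in WT livers, Nop58 averaged 5.43 ± 0.27 in Maf1-/- livers and 4.93 ± 0.31 in WT livers, and Brix1 averaged 4.89 ± 0.24 in Maf1-/- livers and 4.73 ± 0.20 in WT livers. The GC contents of these genes were 44.0%, 42.1% and 41.5%, and that of Amd1 was 41.4%.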
